A study of Drosophila melanogaster with 2 samples.

Results

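The genes described here are 9 genes of Drosophila melanogaster that build the body wall muscle of the embryo. They are the regulators twi, Mef2, nau and lmd, the myoblast fusion genes kirre, sns, rols and mbc, and the sarcomere gene sls. They were grouped by their known roles and not by a measured value, though earlier results of these data were known when they were chosen. They are 9 of 13968 protein-coding genes in the annotation. A peak was counted for a gene when its summit, the base of highest enrichment, lay in the span of the gene on the dm6 assembly or within 1 kb of either end. By that rule 22 of the 2593 peaks in the thresholded list belonged to these genes.

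The peaks were measured by ChIP-seq, in which DNA bound by a protein is recovered with an antibody and sequenced. Whole embryos aged 0 to 16 h, of both sexes, carried the protein Jing with green fluorescent protein (GFP) at its C-terminal end, and DNA sonicated to between 200 and 800 bp was recovered with an antibody against GFP. There was 1 group with 2 biological replicates, numbered 2 and 3, so the data hold no comparison between conditions and no test between samples was possible. Each replicate and the pooled reads had a list of 30000 relaxed peaks, and the thresholded list, which passed the authors' reproducibility step between replicates, held the 2593 strongest pooled peaks. The peak signal is the authors' own value on a scale that is not given. It is used here to rank peaks within a list, with rank 1 as the strongest. The lists hold no read counts, so the depth behind each peak is unknown. Jing is a zinc finger protein related to vertebrate AEBP2. A whole embryo mixes all its tissues, so a peak at a muscle gene does not show in which cells the tagged protein was bound. The labels describe a stable transgenic line and do not say how many untagged copies of jing it kept.

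In the fly embryo, each muscle is seeded by a founder cell that takes on an identity and then fuses with fusion-competent myoblasts. Twist sets up the mesoderm and Mef2 drives muscle differentiation. Immunoglobulin-type receptors on the founder and on the fusion-competent cell recognise each other, and adaptor proteins and a Rac activator then remodel actin at the contact so that the membranes can merge. Jing itself is best known from border cells, the trachea and the central nervous system midline.

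The sequences at the summits show what the peaks sat on. The strongest thresholded peak of each gene is given as 60 bases of dm6 centred on its summit, plus strand, for 5 of the genes. In capitals is an E-box, CANNTG, the sequence that basic helix-loop-helix factors such as Twist and Nautilus bind; windows in lower case hold none.
sls, chr3L:2115849-2115908: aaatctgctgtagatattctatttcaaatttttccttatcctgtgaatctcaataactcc
mbc, chr3R:23782908-23782967: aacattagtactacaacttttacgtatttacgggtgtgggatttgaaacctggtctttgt
kirre, chrX:3097153-3097212: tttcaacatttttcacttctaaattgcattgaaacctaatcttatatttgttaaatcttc
rols, chr3L:12063016-12063075: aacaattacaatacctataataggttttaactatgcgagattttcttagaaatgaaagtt
nau, chr3R:23714044-23714103: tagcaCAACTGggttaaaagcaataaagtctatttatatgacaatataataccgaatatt
Of these 5 windows of 60 bases, only that of nau holds an E-box, and the share over all thresholded summits at this width is not given here. In 200 bp around the same summits, that of kirre also had an E-box, as did 58.9% of all thresholded summits. The nau match, CAACTG, is not one of the Twist-type or MyoD-type forms counted below.

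A thresholded summit was found for 7 of the 9 genes, and 15.0% of all protein-coding genes had one. The gene kirre had 11 summits, rols and mbc had 3 each, Mef2 had 2, and twi, nau and sls had 1 each. The genes lmd and sns had 0. The 9 genes are long, with a median span of 56.6 kb against 2.16 kb for all protein-coding genes, and a long span has more room for a summit, so each gene is also read within its class of length. Under 10 kb, where 10.7% of genes had a summit, nau had one and lmd did not. Between 10 and 50 kb the share was 38.6%, and both mbc and Mef2 had summits. Of the 4 genes between 50 and 100 kb, namely twi, sns, rols and sls, 3 had a summit, and 51.3% of that class did. Over 100 kb, where kirre is the only one of the 9, the share was 58.6%. With 1 to 4 genes in a class, these counts only describe the genes.

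**Figure D1:**
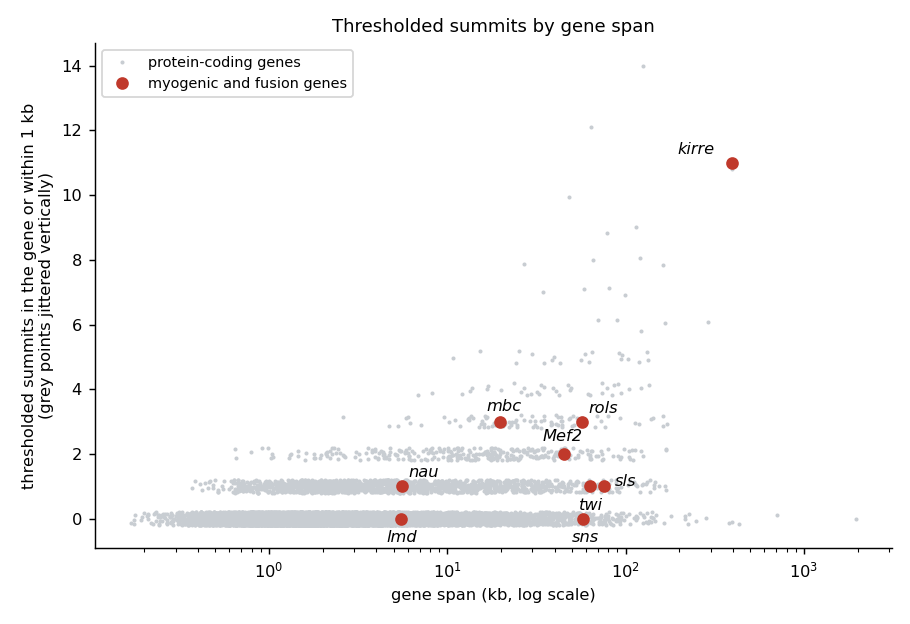
Thresholded summits in each protein-coding gene or within 1 kb of it (y axis, number of summits; grey points are jittered vertically) against the span of the gene (x axis, kb, log scale), with the 9 muscle genes in red. kirre has 11 summits in 394.1 kb, and lmd and sns lie at 0.

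All 22 summits had a summit within 100 bp in the lists of both replicates, compared with 94.1% of all thresholded peaks. Of the 22, 17 were also among the 2593 strongest peaks of each replicate, which is 77.3%, and 69.3% of all thresholded peaks were. The summit in a replicate lay at most 62 bp from the pooled summit, with a median distance of 8.5 bp. The 22 were middling peaks of the list: their signals ran from 108 to 393 with a median of 158, and only 3 were among the 648 strongest of the list. Those 3 were at sls, mbc and kirre. The rank was better in replicate 3 for 13 of the 22 (59.1%) and for 57.6% of all thresholded peaks found in both replicates. The larger rank divided by the smaller had a median of 1.35, against 1.49 over those peaks.

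**Figure D2:**
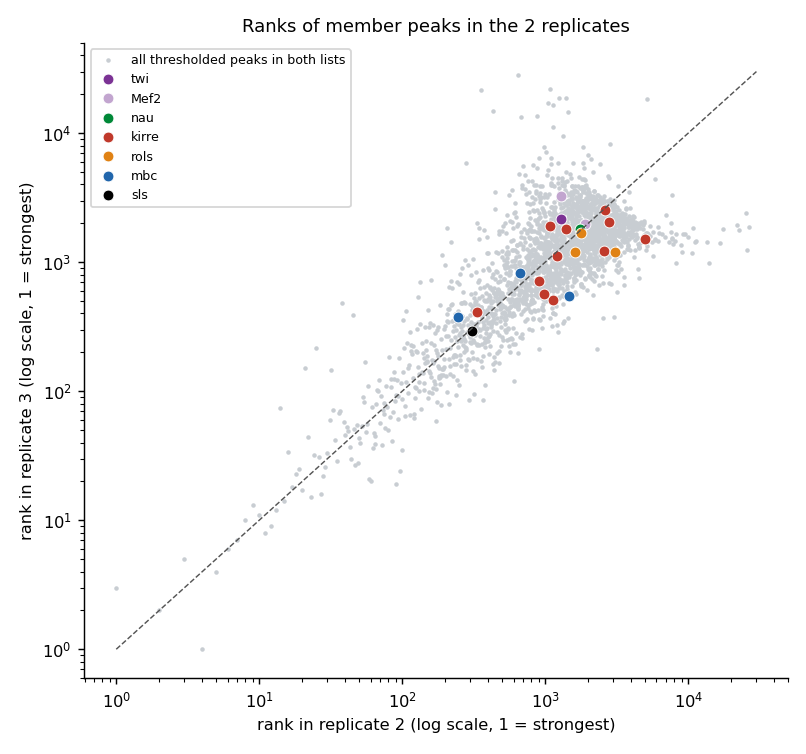
Rank of each thresholded peak in replicate 2 (x axis, log scale) and in replicate 3 (y axis, log scale), for peaks with a summit within 100 bp in both lists; grey points are all such peaks, coloured points the peaks of the muscle genes, and the dashed line marks equal ranks. sls, at ranks 309 and 295, lies on the line, and the kirre peak at ranks 4988 and 1522 lies farthest from it among the muscle genes.

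Introns held most of the 22 summits, and those far from a start site of their own gene were mostly in kirre. Introns held 15 (68.2%), against 39.3% of all thresholded summits. Promoters, taken as 500 bp on either side of any annotated start site, held 6 (27.3%), against 40.8% of all thresholded summits. The last lay in a 5' UTR of Mef2. The rule counts only summits in a gene or within 1 kb of it, whereas all thresholded summits include intergenic ones. These shares are therefore not on the same footing. Only 3 of the 6 promoter summits were at a start site of the muscle gene itself, namely at sls, mbc and rols. The same 3 genes were the ones with a thresholded summit within 1 kb of an own start site, which 10.5% of protein-coding genes had. The other 3 promoter summits were at starts of Syx4 and CG3588 in kirre and of CG9896 in twi. The nearest start site was the muscle gene's own for 13 of the 22, and 10 lay over 5 kb from any of its start sites. Of these 10, 9 were in kirre and 1 in twi. The 11 summits outside kirre comprised 6 in introns (54.5%) and 4 at promoters (36.4%), whereas the 11 of kirre comprised 9 in introns and 2 at promoters.

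**Figure D3:**
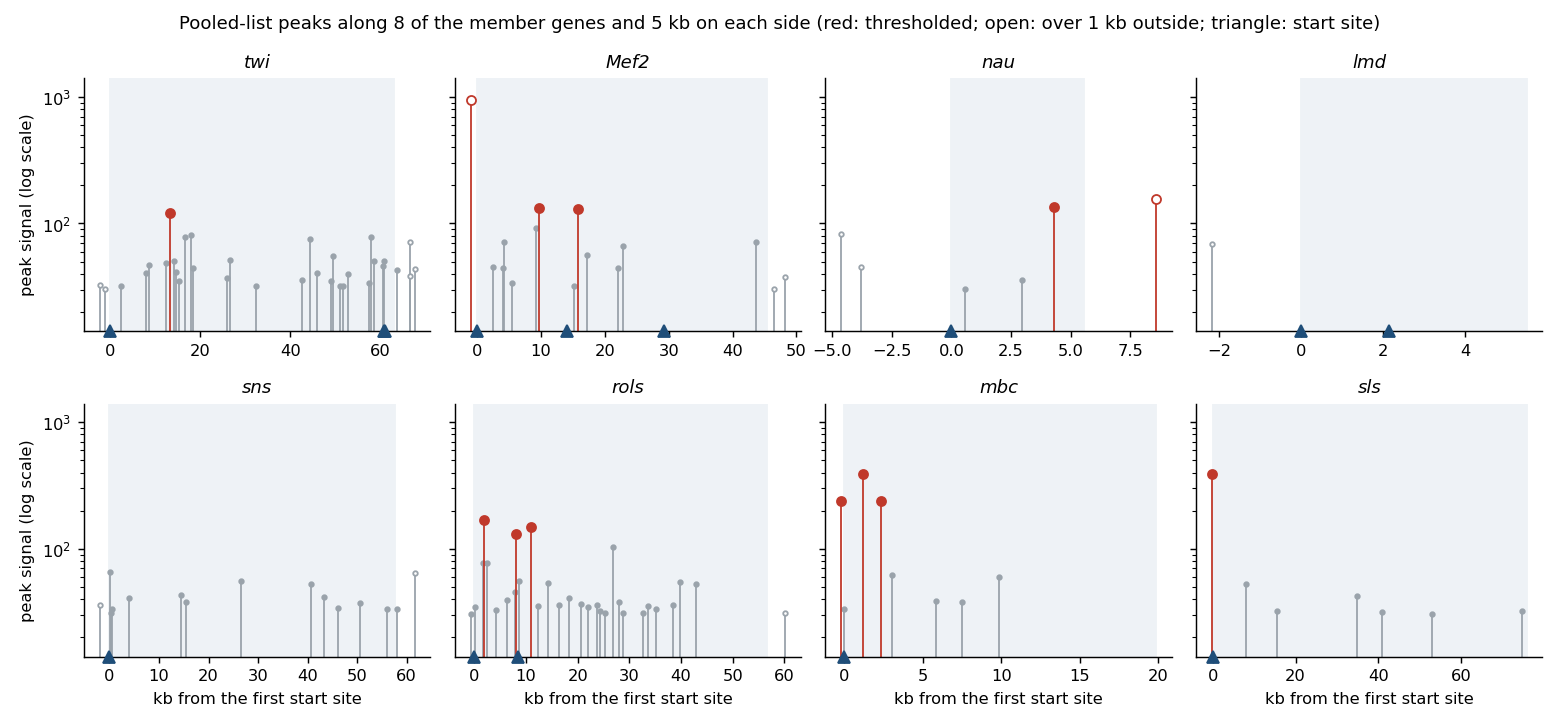
Pooled-list peaks along 8 of the genes (all but kirre) and 5 kb on each side, by peak signal (y axis, log scale) and distance from the first start site in the direction of transcription (x axis, kb). Shaded is the gene span, red marks thresholded peaks, open circles peaks over 1 kb outside the gene, and triangles start sites; the tallest peak is the open circle at Mef2, with a signal of 950, and lmd has no peak in its span.

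Among the regulators, twi encodes the basic helix-loop-helix protein that determines mesoderm. Its 1 thresholded summit, at 2R 22998767, had a signal of 122 and rank 2144, with rank 1295 in replicate 2 and rank 2161 in replicate 3. It lay 13.4 kb into the long transcript twi-RC, in its second intron, and 47.3 kb upstream of the start of the short transcript twi-RA. It also lay 117 bp inside the start of CG9896, a gene in that intron. The 200 bp around it had a GC content of 61.0%, the highest of the 22, whose median was 35.2%. At the short twi transcripts the nearest pooled peak lay 92 bp from the start of twi-RA, at rank 8908. A replicate 2 summit lay 9 bp from that start at rank 3467, and in replicate 3 no summit was nearer than 2085 bp. The start of the short transcripts therefore had a low-ranked peak in replicate 2 that replicate 3 did not share.

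Mef2 encodes the MADS-box factor that switches on muscle structural genes. Both of its thresholded summits had a signal of 131. The one at 2R 9949169 was at rank 1298 in replicate 2 and rank 3255 in replicate 3, in the 17.2 kb first intron of Mef2-RF. The one at 2R 9943013 was at rank 1897 and rank 1987, in the 5' UTR exon of Mef2-RG, 1751 bp downstream of its start. The first was thus stronger in replicate 2, and the second was alike in both. At the start site shared by 8 of the Mef2 transcripts, including Mef2-RA, the nearest thresholded summit was 13.4 kb upstream.

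The 1 kb limit matters for Mef2. A peak at 2R 9959897, 1039 bp upstream of the start of Mef2-RF and Mef2-RH, lay 39 bp past it and was not counted. Its signal of 950 gave it rank 32 of the thresholded list, with rank 49 in replicate 2 and rank 28 in replicate 3, which is above every one of the 22 counted summits. It lay 165 bp upstream of the start of Pdrg1, the nearest start site, and inside the gene Pal1. Within 5 kb of the 9 genes, 1 other thresholded summit was left out by the limit, 3041 bp past the 3' end of nau at 3R 23709773 with a signal of 156, 385 bp upstream of the start of CG10301. The only counted summits that needed the extension were that of sls, 268 bp outside the gene, and 1 of mbc, 208 bp outside.

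nau encodes Nautilus, the fly relative of the vertebrate factor MyoD. Its summit at 3R 23714074 had a signal of 136 and stood at rank 1756 in replicate 2 and rank 1800 in replicate 3. The replicates were therefore close. The summit was in the third intron, 4283 bp downstream of the single start site. The nearest start site of any gene was that of CG10300, 2547 bp away. Its window of sequence above holds the E-box CAACTG.

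lmd encodes a Gli-like zinc finger factor of the fusion-competent myoblasts. No summit of the thresholded, the pooled or either replicate list lay in it or within 1 kb. The nearest pooled summit was 2180 bp upstream of the lmd-RB start at rank 4853, and the nearest thresholded summit 22.1 kb upstream. The lists hold only called peaks, so a lower level of binding would not show in them.

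kirre, also known as dumbfounded, encodes the immunoglobulin-type receptor by which founder cells attract fusion-competent myoblasts. It is the longest of the 9 genes, 394.1 kb on X, and held 11 of the 22 thresholded summits and 105 of the 205 pooled ones. Among 87 protein-coding genes of 100 kb or more, 1 had more thresholded summits, the X-linked CG1677 with 14, and 4 were longer. Per 100 kb, kirre had 2.78, against 0.720 for the median of these long genes and 2.08 for the whole X arm, and 13 of the 87 were denser. Its number among the 2593 strongest peaks was 8 in replicate 2 and 14 in replicate 3.

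The kirre summits were not spread evenly. Between the start of kirre-RG at X 2989051 and that of kirre-RC at X 3099550, a stretch of 110.5 kb, there were 7, or 6.33 per 100 kb. The 249.7 kb before it had 4, or 1.60 per 100 kb, and the 36.0 kb after it had 0. Pooled summits were also densest there, at 43.4 per 100 kb, against 19.2 before and 25.0 after. The cuts, at kirre-RG and kirre-RC out of 6 start sites, were not among the planned counts. These densities therefore only describe where the summits fell. Of the 4 summits in the first stretch, all lay in or within 200 bp of another gene that overlaps kirre. In the middle stretch, the nearest other gene was CG4116, 942 bp from 1 of the summits.

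**Figure D4:**
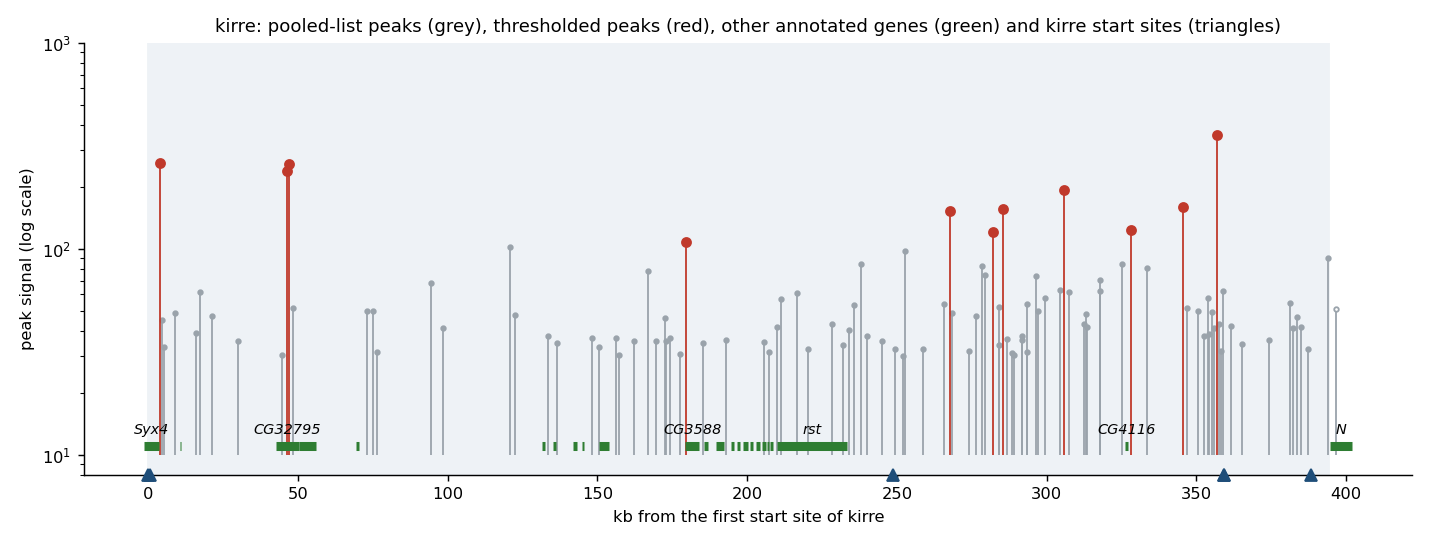
Pooled-list peaks along kirre by peak signal (y axis, log scale) and distance from its first start site (x axis, kb). Grey marks pooled peaks below the threshold, red the 11 thresholded peaks, green bars other annotated genes, the open circle a peak over 1 kb outside, and triangles the start sites of kirre; 7 of the thresholded peaks lie between the triangles at 248.7 and 359.2 kb.

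The strongest kirre peak, at X 3097183, had a signal of 357 and rank 363. Its rank was 334 in replicate 2 and 411 in replicate 3, and its summits there were 1 and 35 bp away. It lay 2367 bp upstream of the start of kirre-RC, in introns of the longer transcripts. The next, at X 2744247 with a signal of 261, was 171 bp upstream of Syx4, a syntaxin gene that runs the other way near the 5' end of kirre, and had rank 1136 in replicate 2 and rank 505 in replicate 3. A pair followed 696 bp apart inside CG32795, at X 2787467 with a signal of 257 and at X 2786771 with a signal of 239. Their ranks were 980 and 905 in replicate 2, and 566 and 712 in replicate 3. All 3 of these ranked higher in replicate 3. The weakest, at X 2919978 with a signal of 108 and rank 2551 of 2593, lay 141 bp upstream of a start of CG3588.

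The remaining 6 kirre summits, all in the middle stretch, had signals from 120 to 193. The strongest of these, at X 3046166, had ranks 1201 and 1111 in replicates 2 and 3 and was 53.4 kb from the nearest start of kirre. The least even, at X 3022623, had rank 4988 in replicate 2 and rank 1522 in replicate 3. It is the kirre summit that rests most on 1 replicate. Relaxed peaks at the kirre-RC start itself were weaker: the nearest pooled summit was 133 bp upstream at rank 5748, and replicate 2 had a summit 1 bp away at rank 3306. The gene rst, which encodes a receptor closely related to Kirre and lies within the kirre span on the other strand, had 0 thresholded summits. N, the Notch receptor gene that starts downstream of kirre, had 1, at X 3162573 with a signal of 433, 27.7 kb inside N and so not counted for kirre.

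sns encodes Sticks and stones, the receptor of the fusion-competent myoblasts that binds Kirre. It had 0 thresholded summits, and the nearest lay 129.2 kb upstream of its start. Of its 13 pooled summits the strongest was 72 bp downstream of the start, at 2R 8798561, with a signal of 65.6 and rank 5245. In replicate 2 it stood at rank 2081, within the 2593 strongest. Replicate 3 had no summit within 100 bp of it, the nearest to the start being 553 bp inside at rank 11209. Along the gene and 1 kb on each side, kirre thus had 11 thresholded summits and sns had 0. None of the 11 was at a kirre start site, the nearest being 2367 bp away, and 5 were within 1 kb of another gene. At its own start site, sns had a peak in 1 replicate only. kirre is 394.1 kb long and sns 57.6 kb, and the difference was not tested.

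rols, also called antisocial, encodes the founder cell adaptor that links Kirre to the fusion machinery. Its strongest summit, at 3L 12063046, had a signal of 170, with rank 1619 in replicate 2 and rank 1209 in replicate 3. It was in the first intron of the long transcripts, 1813 bp downstream of their start. The second, at 3L 12053879, had a signal of 149 and ranks 1768 and 1671, and lay 2595 bp downstream of the start shared by rols-RA and 5 other transcripts. The third, at 3L 12056812, had a signal of 132 and was 338 bp upstream of that same start, with rank 3053 in replicate 2 and rank 1188 in replicate 3. The first 2 had like ranks in both replicates, and the promoter peak was stronger in replicate 3. All 3 lay within 2595 bp of a rols start site, and the rest of the 56.6 kb gene had none. A further pooled peak 18.5 kb inside, at 3L 12038004, fell just short of the list at rank 2703.

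mbc encodes Myoblast city, a DOCK180-type activator of Rac needed for fusion. Its 3 summits all lay within 2.4 kb of its single start site. The strongest, at 3R 23782938, had a signal of 391 and rank 303, with rank 244 in replicate 2 and rank 375 in replicate 3. It was 1173 bp downstream of the start, in the 7.54 kb first intron. A second in the same intron, at 3R 23784123 and 2358 bp from the start, had a signal of 240 and ranks 662 and 823. The third, at 3R 23781557, had a signal of 237, with rank 1463 in replicate 2 and rank 546 in replicate 3. It lay 208 bp upstream of the mbc start and 64 bp inside Nup98-96, a nucleoporin gene that starts in the other direction, so a promoter peak of mbc and one of Nup98-96 cannot be told apart. The 2 intron peaks ranked higher in replicate 2 and the shared promoter peak in replicate 3. Per 100 kb, mbc had 13.7 thresholded summits with 1 kb on each side included, against 1.83 for the whole of arm 3R. On the same arm nau had 13.3 and lmd 0. In a gene as short as nau, with 5.5 kb, 1 summit is enough for such a value. Counted the same way, rols had 5.12 and sls 1.28, against 1.97 for arm 3L. Mef2 had 4.22, twi 1.54 and sns 0, against 1.70 for arm 2R.

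sls encodes Sallimus, the titin-like protein that spans the muscle I-band. It is 75.9 kb long with a single annotated start site for its 13 transcripts. Its only thresholded summit, at 3L 2115879, was 268 bp upstream of that start and had a signal of 393, the highest of the 22, at rank 302. The rank was 309 in replicate 2 and 295 in replicate 3, and the summits there were 0 and 4 bp away. No other gene covers it. In the body of sls there were 6 pooled summits, the strongest at rank 7996, so the gene had 1 reproducible peak at its promoter and weak ones elsewhere.

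Some peaks reached the 2593 strongest in 1 replicate and were absent from the thresholded list. There were 3 such peaks in kirre, all from replicate 3, 1 in sns, from replicate 2, and 1 from each replicate in rols. The 9 genes held 20 of the 2593 strongest peaks of replicate 2 and 25 of those of replicate 3. The matching share over all peaks is not given here, so these counts only describe the genes. Over the relaxed lists as a whole, 188 peaks of replicate 2 lay in or near the 9 genes. Of these, 83 (44.1%) had a summit of replicate 3 within 100 bp, against 33.2% of all peaks of replicate 2. The largest part of the 83 came from kirre, with 47 of its 93 peaks. The genes with the next most peaks, rols and twi, had 9 of 26 and 10 of 25.

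A set of 14 sequences, known from muscle factors, other transcription factors and core promoters, was looked for on both strands of the 200 bp around each of the 22 summits. An E-box, CANNTG, was in 13 windows (59.1%), against 58.9% of all thresholded summits. The E-boxes that Twist favours are among these: CATATG was in 0 of 22 windows, against 7.60%, and CACATG in 4 (18.2%), against 6.86%. CAGCTG, favoured by MyoD-type factors, was in 0, against 7.06%, and CACTTGA, bound by the mesoderm factor Tinman, in 0, against 3.28%. In flanking windows of 200 bp centred 500 bp to the left and right of the 22 summits, an E-box was in 10 and 8. CACATG was in 1 and 0 of them. Over all thresholded summits, such flanking windows held an E-box in 64.7% and CACATG in 9.83%. All 4 CACATG matches at the 22 summits were in kirre. They are shown with 10 bases on each side, plus strand, with the match in capitals, and were picked out after the counts were seen.
kirre, chrX:2744328-2744353: tatgtacgttCATGTGctttagctgg
kirre, chrX:3025618-3025643: gtagtcaaatCACATGcgtgcactga
kirre, chrX:3046207-3046232: caagtaagtaCATGTGactttcgttt
kirre, chrX:3068572-3068597: gtgcagcgcaCACATGgagcgccaca
The matches lay between 54 and 94 bp from their summits, and 2 of the 4 read CATGTG on the plus strand, the reverse complement. The bases around them differ. A match describes the letters and is not a bound site.

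The consensus of Mef2 and other MADS factors was in 2 of the 22 windows (9.09%), against 11.4% of all thresholded summits. Both were in kirre, and are shown with 10 bases on each side and the match in capitals.
kirre, chrX:2787443-2787472: attatatctaCTATATTTAAtatcagtgaa
kirre, chrX:3022640-3022669: cattttggttTTATATTTAAcgtgcgatga
The first match was centred 9 bp from its pooled summit, in the pair of peaks inside CG32795. The second was centred 32 bp from the pooled summit at X 3022623. The summits of that peak in replicate 2, at rank 4988, and in replicate 3 lay 62 and 55 bp from the pooled summit, on the side away from the match. The GAGA sequence GAGAG was in 1 of the 22 windows, against 24.4%. The homeodomain core TAATTA was in 2, against 16.7%, and the forkhead core TAAACA in 6 (27.3%), against 24.5%. The GATA sequence TGATAA was in 3 (13.6%), against 16.5%, the Pho sequence GCCAT in 6 (27.3%), against 26.8%, and the initiator sequence TCAGT in 6, against 37.9%. The repeat GTGTGT was in 2, against 11.7%, and the DRE sequence TATCGATA in 0, against 1.08%. With 22 windows, 1 match moves a share by 4.55 percentage points. In 14 of the 22 the window had a lower GC content than the mean of the 200 bp windows centred 500 bp to either side, as did 77.9% of all thresholded summits.

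Other muscle genes, in 3 lists drawn up by role, were counted in the same way beside the 15.0% of all protein-coding genes. Of 39 mesoderm and muscle identity regulators, 20 had a thresholded summit (51.3%), with a median span of 14.1 kb. The strongest were in or near CHES-1-like, a forkhead gene with 8 summits and a signal of up to 531, N at 433, the T-box gene org-1 at 387 and the zinc finger homeodomain gene zfh1 at 347. Of 30 further myoblast fusion genes, 9 had one (30.0%), with a median span of 8.70 kb. The strongest were the kinase genes Pak3 at 498 and Pak at 275, Hem, a subunit of the actin regulator SCAR complex, at 245, and the integrin gene mew at 243. For the Hem summit, at rank 725 in replicate 3, no matching replicate 2 summit was found. The other 5 with a summit were rhea at 226, Arp2 at 196, siz at 172, Grip at 167 and if at 114.7. The remaining fusion genes had 0, among them the receptor genes hbs and rst and the Arp2/3 activators SCAR and WASp. Of 34 sarcomere genes, 8 had one (23.5%), with a median span of 9.43 kb. The strongest were the formin gene Fhos at 801, the nesprin gene Msp300 at 484, CAP at 355 and tmod, the tropomodulin gene, at 284. The other 4 with a summit were Zasp52 at 164, the actin gene Act87E at 141, the troponin C gene TpnC47D at 124 and the myosin light chain gene Mlc2 at 120. The TpnC47D summit had rank 7703 in replicate 2 and rank 1552 in replicate 3. That of Mlc2 lay 3702 bp downstream of the Mlc2 start, past the end of the 3.1 kb gene and at a promoter of another gene. The strongest summits of Zasp52, Act87E and TpnC47D were classed as intergenic, so they were counted only through the 1 kb extension. The remaining sarcomere genes had 0, among them the myosin heavy chain gene Mhc, the actin gene Act57B and the tropomyosin genes Tm1 and Tm2. These counts take no account of gene length and were not tested.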

How the data were processed

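Per the file headers, the authors called peaks on dm6 with a control alignment, for replicate 2, for replicate 3 and for both together. From these 3 lists they made the thresholded one by the irreproducible discovery rate step. The control was not analysed here. The sources used here do not give the aligner or the peak caller. The deposited signal of a peak, whose scale is not given, served for ranks. The deposited −log10 q-value was read but decided no call. Deposited positions give summit = start + offset, written 1-based.

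Genes and start sites came from Ensembl release 115, and bases from the RefSeq Release 6 genome, where 99.8% of annotated start codons read ATG. Summits were classed as promoter (500 bp) first, then UTR, exon, intron or intergenic. Motif windows were 200 bp. A single group of 2 replicates allows no test, and neighbouring peaks are not independent, so all counts are descriptions. The genes and lists were chosen with earlier results of these data known. The text names the 9 genes with every thresholded summit, up to 4 genes of each muscle list by strongest summit, and genes over or within 500 bp of a counted summit. Named after their values were seen were CG1677, Pdrg1, Pal1, CG10300, CG10301 and CG4116. So were, of the fusion and sarcomere lists, every other gene with a summit and the examples without one. Older symbols were matched through RefSeq synonyms. Alternatives are other distances, windows and strengths, and each replicate alone. Counting was checked on simulated data: 200 of 200 planted summits were found. Python 3.11.15, numpy 2.4.6, pandas 2.3.3 and matplotlib 3.10.9 were used.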

Additional observations from a re-analysis of the deposited data

How the results depend on the processing

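Of 32 alternative counts, 23 were within 1.5 times the main count. Among thresholded peaks with a signal above the list's median, 4 of the 9 genes (kirre, rols, mbc and sls) had a summit in place of 7, with 10 summits in place of 22, and 23 of the other muscle genes in place of 37. Leaving out a replicate, and taking the 2593 strongest peaks of the other, gave 7 to 8 genes, 20 to 25 summits and 38 to 40 other muscle genes; the eighth gene was sns, from replicate 2. Windows of 100 and 300 bp held an E-box at 7 and 20 of the 22 summits in place of 13. With 5 kb on each side there were 24 summits, and with the span alone 20. The next 3 alternatives were chosen after seeing the data. A summit within 1 kb of an own start site was found for 3 genes. Giving each summit only to the gene that starts nearest to it left 13 summits in 5 genes. Without kirre there were 11 summits, 6 of them with an E-box. The depth of the libraries is unknown, and the lists end at 30000 peaks, so weaker binding would not be seen. No paired analysis was possible because there is a single group.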
